A study of Mus musculus with 46 samples.

Results

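The genes described here are 8 enzymes of the NRF2 antioxidant response, Nqo1, Hmox1, Gclc, Gclm, Txnrd1, Srxn1, G6pdx and Gsr, and the 2 subunits of ferritin, Fth1 and Ftl1. They were taken by symbol, from a choice of genes made with earlier results of these data known, and all 10 were listed among the 9857 symbols that the count tables share between treatments. The measurements came from EPP2, a murine pancreatic cancer cell line carrying doxycycline-inducible Cas9, with or without inducible knockout (iKO) of Ctu1, the thiolase that modifies the wobble uridine U34 of a few tRNAs. Control cells, labelled WT, and Ctu1 iKO cells each received solvent (DMSO) or torin 1, an inhibitor of the mTOR kinase, at 300 nM for 2 h. Knockout was induced with doxycycline at 300 ng/ml for 4 days, and the labels do not say whether the control cells received doxycycline or which control guides they carried. The iKO populations were transduced and drug-selected, so they can mix edited and unedited alleles. Ribosome footprints (fragments of mRNA protected by translating ribosomes) and RNA were each sequenced from 6 control DMSO, 6 control torin 1, 5 Ctu1 iKO DMSO and 6 Ctu1 iKO torin 1 samples. The study's figure legends count as many independent experiments for ribosome profiling as samples labelled, whereas its methods, and its legends for RNA sequencing, count fewer. If some samples are repeats of 1 culture, the p-values, which take every sample as independent, are too small. Footprints of all replicates were used, whereas RNA was analysed in replicates 1 to 3, for the reason given below.

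NRF2 is a transcription factor that the ubiquitin ligase adaptor KEAP1 marks for degradation and that electrophiles and oxidants release. With a small MAF partner it binds antioxidant response elements, a site for which BACH1 competes as a repressor, and it raises genes that make glutathione, reduce thioredoxin and supply NADPH. Ferritin stores iron in a mineralised form and is an NRF2 target as well, but its translation is also set by iron: when iron is scarce, iron regulatory proteins bind a hairpin in the 5′ untranslated region, the iron-responsive element (IRE), and hold back initiation.

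The 2 ferritin transcripts carry the IRE hairpin, shown here because the footprint changes described below concern these transcripts. In the 30 bases of each 5′ untranslated region, read on the transcript strand, the capitals mark the bulged C and the 6-base loop, and the lower-case letters on either side of the loop hold its 5-base upper stem. The Fth1 element lies at chr19:9982732-9982761 (GRCm38, + strand), bases 87 to 116 of transcript ENSMUST00000025563.7. The Ftl1 element lies at chr7:45459778-45459807 (GRCm38, - strand), bases 78 to 107 of transcript ENSMUST00000094434.12.
Fth1: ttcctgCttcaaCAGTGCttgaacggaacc
Ftl1: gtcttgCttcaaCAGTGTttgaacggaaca
A search for the bulged C, a loop of CAGTGN and a paired upper stem found a match in 13 of 10159 genes (0.128%), and 2 of the 10 genes described here were among them. A match is a description of the letters and not a measurement of binding.

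The core of the antioxidant response element, TGACNNNGC, was searched on both strands of RefSeq promoter windows (GRCm38.p6) that run from 250 bases before to 50 bases after each start site. For 7 of the 10 genes 10 windows were at hand, and 4 of the 10 windows, each of another gene, held the core, against 12.4% of all 32851 windows. The matches are shown, with the core in capitals, to place the letters searched, and a match is not a measurement of NRF2 acting there. Positions are counted from the RefSeq start of the window, which for Txnrd1 is 1 of 3 starts and lies inside the gene as GENCODE draws it (chr10:82833951-82897712), as does that of G6pdx (chrX:74409483-74429194). The match of G6pdx lies at chrX:74428919-74428948 (+ strand), 53 bases before that start. That of Gclm lies at chr3:122245412-122245441 (- strand), 130 bases before the start. The Srxn1 match is at chr2:152105541-152105570 (- strand), 33 bases after the start, and the Txnrd1 match is at chr10:82859103-82859132 (- strand), 88 bases before the start of its window.
G6pdx: gcgtgtgcttTGACTGAGCtgacccgcctc
Gclm: tcgtgagagtTGACGGTGCgcccgggagcg
Srxn1: tgtctcactcTGACCTAGCtgcccactgcc
Txnrd1: cgtgtcagaaTGACAAAGCaaaaatccagt
All 4 cores stood on the strand opposite to the gene, and no factor binding was measured in these samples.

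Libraries held 4602092 to 52907878 footprints and 129881946 to 325494304 RNA counts, and levels are given as CPM, counts scaled to a library of 1000000. Placed on the axis that separates torin 1 from DMSO in replicates 1 and 2, 6 of 23 RNA libraries lay on the side opposite to their label (iKO DMSO replicates 4 and 5, control torin 1 replicates 5 and 6, iKO torin 1 replicates 5 and 6), and 0 of 23 footprint libraries did. RNA results therefore rest on replicates 1 to 3, and counts of calls with all replicates are given in the closing section. Replicates 1 and 2 defined the axis, so their own positions are not an independent check of their labels. The RNA replicates were thus chosen by how libraries separated by treatment, and the RNA tests of torin 1 do not allow for that. Ctu1 itself, at chr7:43672016-43678298 (GRCm38, + strand), was listed for the DMSO samples. Its footprints were at 1.60 to 3.63 CPM in 6 control and 1.30 to 2.25 CPM in 5 iKO libraries (log2 difference -0.54, SE 0.29, edgeR adjusted p = 0.353), and its RNA was at 4.53 ± 0.10 CPM (SD, n = 3) against 4.60 ± 0.32 CPM (SD, n = 3). The overlap of these levels neither shows nor excludes editing of the locus, since frameshifts can leave the mRNA in place. Of the markers searched, 3 of 5 epithelial (Krt8, Krt18, Krt19) and 4 of 5 mesenchymal ones (Vim, Col1a1, Pdgfra, Pdgfrb) were listed, as was 1 of 4 markers of pancreatic duct (Sox9), but Epcam and Cdh1 were not, nor were any of the 3 acinar, 3 leukocyte or 3 endothelial markers. Their summed RNA differed between groups: the 4 mesenchymal markers lay at 2487 to 2720 CPM in control DMSO, 3210 to 3601 in control torin 1, 3131 to 3443 in iKO DMSO and 5107 to 5802 in iKO torin 1, and the 3 epithelial markers at 259.0 to 278.4, 341.8 to 387.9, 293.0 to 360.3 and 494.8 to 540.8 CPM. Sox9 RNA lay at 27.2 to 28.9 CPM in control DMSO, 37.8 to 49.2 in control torin 1, 25.8 to 37.8 in iKO DMSO and 53.3 to 78.2 in iKO torin 1. The part of this shift in the results below was not tested. In bulk samples, fewer cells of a kind and less RNA per cell cannot be told apart.

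In untreated control cells, the 10 genes spanned the range from the most abundant transcripts to the rarely translated ones. Per kilobase of transcript, Ftl1 stood at 2301 ± 133 CPM and Fth1 at 1995 ± 125 CPM (SD, n = 3), both at the 99.7 percentile of 9728 genes. Txnrd1, the selenoprotein that reduces cytosolic thioredoxin, came next at 237 ± 14.3 CPM per kilobase. G6pdx, the first enzyme of the pentose phosphate pathway, stood at 50.6 ± 3.99, and Gsr, the reductase that regenerates glutathione, at 28.4 ± 3.73. The levels of Srxn1, which repairs over-oxidised peroxiredoxins, and of Hmox1, which degrades haem to biliverdin, iron and carbon monoxide, were 22.4 ± 1.55 and 20.9 ± 4.74 and did not differ beyond their spread. Gclm and Gclc, the modifier and the catalytic subunit of the ligase that starts glutathione synthesis, were at 15.8 ± 0.451 and 12.7 ± 0.785. Nqo1, a quinone reductase and a classic NRF2 marker, was far lower at 1.58 ± 0.218 CPM per kilobase, the 9.61 percentile.

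Per kilobase of coding sequence, footprints were led by the same 3 transcripts, Fth1 at 986 ± 201 CPM, Ftl1 at 434 ± 117 and Txnrd1 at 258 ± 17.6 (SD, n = 6). Gclm, among the lower ones by RNA, came next at 135 ± 22.0 CPM. Set against their RNA, however, the ferritin transcripts were sparsely covered by ribosomes. The log2 ratio of footprint density to RNA density was -2.12 ± 0.16 for Ftl1 and -0.83 ± 0.11 for Fth1 (SD, n = 3), where the median of 9518 genes was 0.64 and the quartiles -0.04 and 1.36. Only 87 genes had a ratio below that of Ftl1 and 762 a ratio below that of Fth1. At the other end, Gclm had a ratio of 3.13 ± 0.29, the 96.0 percentile, while its partner Gclc stood at -0.28 ± 0.12, the 18.4 percentile. The value of Gclm rests on the reference transcript, of 5589 bases with 825 coding bases: without lengths its log2 ratio of footprint CPM to RNA CPM was 0.37 ± 0.29, beside 0.48 ± 0.18 for Nqo1, -1.11 ± 0.12 for Gclc, -1.59 ± 0.11 for Fth1 and -2.93 ± 0.16 for Ftl1 (SD, n = 3). The remaining 6 genes lay between 0.10 for Txnrd1 and 1.39 for Nqo1. Footprints are short and can be assigned to near-identical copies: Ftl1-ps1, a processed copy of Ftl1, received 42.6 to 52.7% as many footprints as Ftl1 but 0.0119 to 0.0296% as much RNA, and with its footprints added the ratio of Ftl1 became -1.57 ± 0.16, the 2.32 percentile. Likewise, G6pd2 received 6.45 to 14.5% as many footprints as G6pdx. Levels of Ftl1 and G6pdx footprints are uncertain to that extent.

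**Figure D1:**
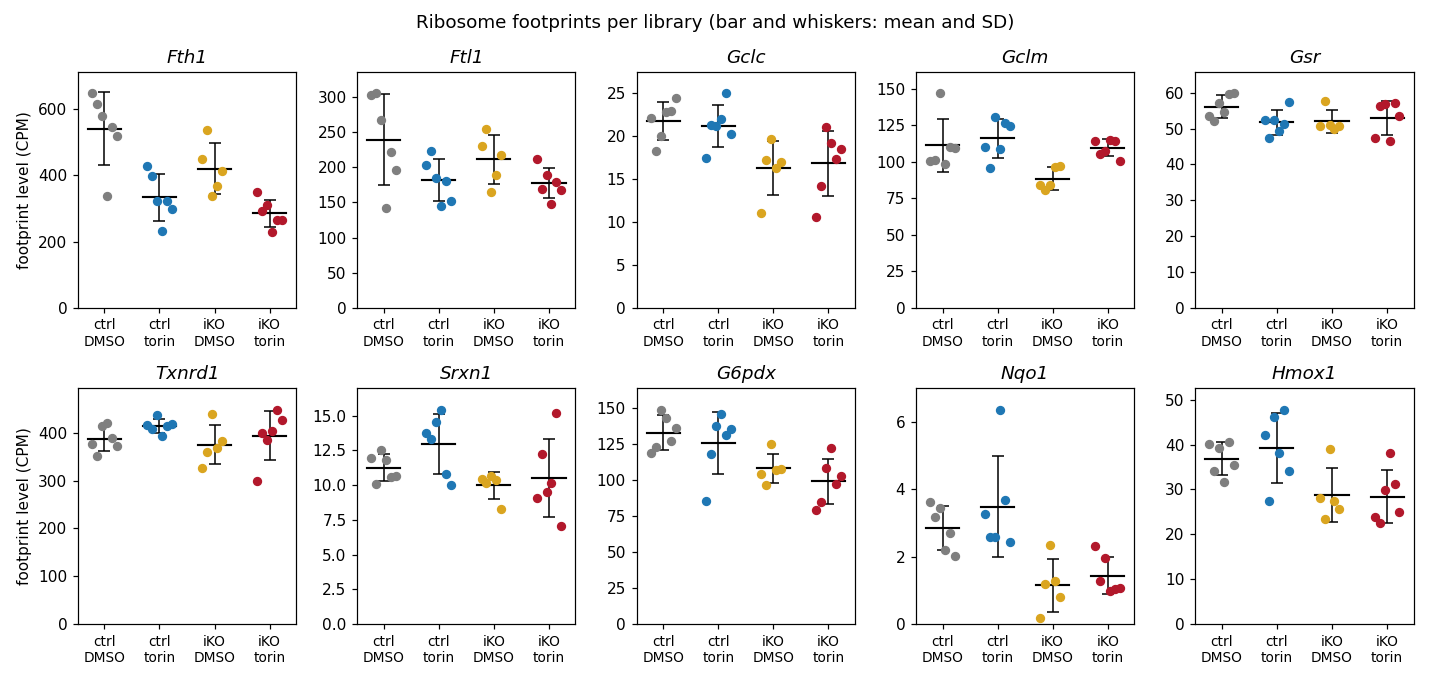
Ribosome footprints of the 10 genes in each library, in CPM (linear axis from 0), for control and Ctu1 iKO cells in DMSO or torin 1; points are libraries, bars are means and whiskers SDs. Fth1 averaged 541.4 CPM in control DMSO and 333.6 CPM in control torin 1, and Nqo1 lay at 2.43 to 6.37 CPM in control torin 1 against 0.992 to 2.33 CPM in iKO torin 1.

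Torin 1 lowered footprints of the ferritin heavy chain, and among these 10 genes Fth1 was the one called in either genotype. The heavy chain carries the ferroxidase centre that oxidises iron for storage. In control cells, Fth1 footprints were at 336.9 CPM at the lowest, 564.3 at the median and 648.2 at the highest in DMSO, and at 232.2, 321.5 and 429.7 CPM in torin 1. The ranges met at DMSO replicate 4 alone (336.9 CPM), whose same-numbered torin 1 sample was also the lowest of its group (232.2 CPM), and torin 1 was lower in 6 of 6 same-numbered pairs. None of the 10 genes had groups that did not overlap in this comparison, where 5.44% of all genes did. Fth1 fell by 0.70 on the log2 scale, to 0.616 times its DMSO level (SE 0.16, 95% interval -1.05 to -0.35, edgeR adjusted p = 0.0145, n = 6 and 6). This was 1 gene called of 10, where 7.24% of all genes were called. The call held without any 1 of the 12 libraries (-0.80 to -0.61), and with the replicate number as a block the adjusted p was 2.8e-06. In replicates 1 and 2 alone the change was -0.60 with adjusted p = 0.0757, and in replicates 3 to 6 alone -0.76 with adjusted p = 0.0210.

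In Ctu1 iKO cells, Fth1 footprints were at 448.9, 536.1, 336.9, 368.8 and 413.6 CPM in the 5 DMSO libraries and at 229.6, 279.2 and 349.5 CPM (lowest, median, highest) in torin 1. Apart from DMSO replicate 3 at 336.9 CPM, every DMSO library was above every torin 1 library. Fth1 fell by 0.57 on the log2 scale, to 0.674 times its DMSO level (SE 0.13, 95% interval -0.86 to -0.28, edgeR adjusted p = 0.0176), again 1 gene called of 10 against 8.00% of all genes, and the call held without any 1 of the 11 libraries (-0.64 to -0.47). The test of the difference between genotypes, the interaction, gave 0.14 for Fth1 (95% interval -0.32 to 0.59, edgeR adjusted p = 0.9998).

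Footprints of Ftl1, the light chain that promotes growth of the iron mineral, lay in the same direction with smaller values that did not pass the test. In control cells they were at 142.5, 245.0 and 305.5 CPM (lowest, median, highest) in DMSO and 145.5, 182.8 and 223.3 CPM in torin 1, and the groups overlapped. The log2 difference was -0.40 (SE 0.17, edgeR adjusted p = 0.193), with torin 1 lower in 5 of 6 pairs. With the replicate block, Ftl1 was called as well (-0.37, SE 0.07, adjusted p = 0.00517), in a fit that called 20.5% of all genes and 2 of the 10, and so it was without control DMSO replicate 4 (-0.51, adjusted p = 0.0478). In iKO cells Ftl1 footprints were at 229.9, 254.0, 164.6, 189.5 and 217.9 CPM in DMSO and at 148.3, 174.6 and 211.3 CPM (lowest, median, highest) in torin 1, a log2 difference of -0.26 (SE 0.13, adjusted p = 0.255). Counts of its copy Ftl1-ps1 gave -0.33 and -0.25 in the 2 genotypes (adjusted p = 0.348 and 0.359), and adding them to Ftl1 left the control difference at -0.38 (SE 0.17, adjusted p = 0.233).

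Ferritin RNA was not lower with torin 1. In control cells Fth1 RNA was at 1944, 1722 and 1894 CPM in DMSO and at 2185, 1851 and 2266 CPM in torin 1, higher in torin 1 in 3 of 3 pairs (log2 difference 0.16, SE 0.09, edgeR adjusted p = 0.318). Ftl1 RNA was at 2329, 2083 and 2270 CPM against 2625, 2314 and 2588 CPM, also higher in 3 of 3 pairs (0.15, SE 0.08, adjusted p = 0.256). Neither passed the test without the block. With the replicate block, in a fit that called 43.7% of all genes, both were called higher (0.16, adjusted p = 0.00838 for Fth1, and 0.15, adjusted p = 0.0053 for Ftl1). In iKO cells the differences were 0.02 for Fth1 and 0.09 for Ftl1 (adjusted p = 0.968 and 0.740).

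Footprints relative to RNA, the translational efficiency, were compared by the interaction of assay and treatment in 1 model of both assays. In this test 0 of the 10 genes were called for torin 1 in control cells, where edgeR called 1.30% of all genes, and 0 of 10 in iKO cells, where it called 2.04%. At an unadjusted p under 0.05, 3 genes lay in each comparison, beside 4.17% and 7.69% of all genes. DESeq2, which called 1.60% and 3.10% of all genes, called 1 in each, Fth1 in control and Gclm in iKO cells. For Fth1 in control cells the log2 difference was -0.86 (SE 0.25, unadjusted p = 0.00281, adjusted p = 0.179), and in iKO cells -0.59 (SE 0.22, adjusted p = 0.368). For Ftl1 it was -0.55 (SE 0.26, adjusted p = 0.9997) and -0.35 (SE 0.20, adjusted p = 0.809). The Fth1 value in control cells was called by DESeq2 (adjusted p = 0.027), with a replicate block within each assay (adjusted p = 1.1e-05, in a fit that called 2.86% of all genes and 2 of the 10), and with replicates 1 to 3 of both assays (adjusted p = 0.032). It was also called when the footprint library of control DMSO replicate 4 was left out (-0.97, adjusted p = 0.0183). By culture, the log2 ratio of Fth1 footprints to RNA moved by -0.76, -0.73 and -1.11 with torin 1 in control cells and by -0.45, -0.77 and -0.17 in iKO cells. That of Ftl1 moved by -0.75, -0.60 and -0.73 in control cells and by -0.23, -0.79 and 0.22 in iKO cells, so that iKO culture 3 stood apart. A shared sign over the 6 cultures was not particular to Fth1: G6pdx lay below 0 in 6 of 6 (-0.37 to -0.16), and Gclc and Txnrd1 above 0 in 6 of 6. The translational efficiency of Txnrd1 differed by 0.25 in control (unadjusted p = 0.0332, adjusted p = 0.991) and 0.39 in iKO cells (unadjusted p = 0.0391, adjusted p = 0.606).

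Among the markers, Vim, Krt8 and Krt18 were also lower in footprints and higher in RNA with torin 1 in control cells, by their medians. Vim footprints were at 3709 CPM in control DMSO and 2715 CPM in control torin 1 and its RNA at 2324 and 3023 CPM. Krt18 footprints were at 135.9 and 116.3 CPM and its RNA at 122.1 and 179.5 CPM, and Krt8 footprints at 170.2 and 158.4 CPM and its RNA at 131.5 and 154.4 CPM. In iKO cells these 3 lay further apart: Vim footprints were at 3763 CPM in DMSO and 2048 CPM in torin 1 and its RNA at 2982 and 4910 CPM. Krt8 footprints were at 212.5 and 187.7 CPM there and its RNA at 171.0 and 266.5 CPM. Krt19 and Col1a1 moved little in control cells, at 12.3 and 12.4 CPM and 328.3 and 322.5 CPM in footprints and 12.6 and 13.9 CPM and 139.6 and 132.4 CPM in RNA, but in iKO cells both were lower in footprints and higher in RNA by their medians. Pdgfra, Pdgfrb and Sox9 did not diverge in control cells: their medians were higher in torin 1 in both assays, for Sox9 from 46.6 to 83.3 CPM in footprints and from 27.3 to 49.2 CPM in RNA. The part of these shifts in the ferritin values was not tested.

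**Figure D2:**
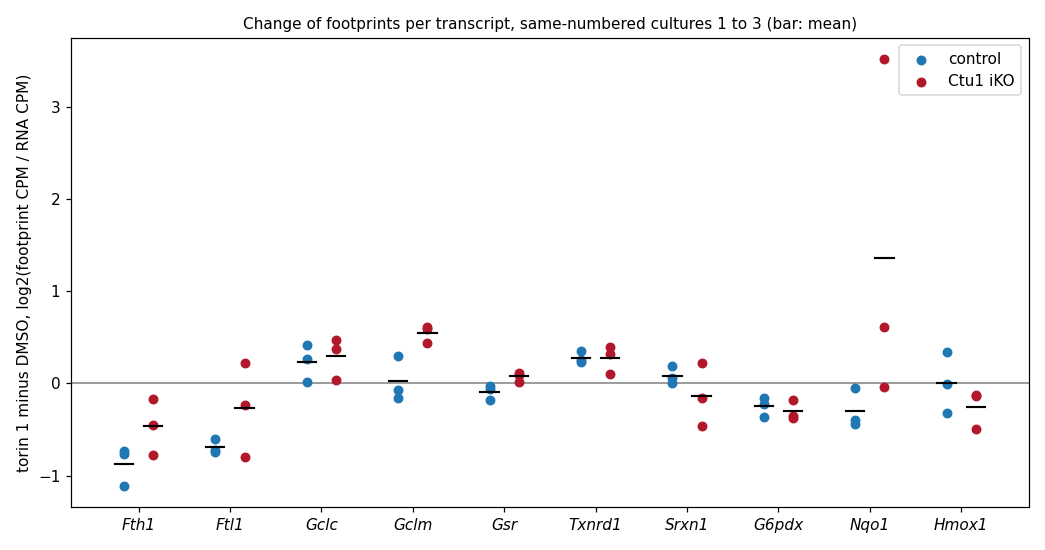
Change with torin 1 of the log2 ratio of footprint CPM to RNA CPM in same-numbered cultures 1 to 3 of each genotype, for the 10 genes; points are cultures and bars means. Fth1 (-1.11 to -0.17) and G6pdx lay below 0 in 6 of 6 cultures, Gclc and Txnrd1 above 0 in 6 of 6, and the Nqo1 point at 3.52 rests on 2 footprints in iKO DMSO culture 1.

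None of the 8 enzymes was called by edgeR in footprints with torin 1 in either genotype. Their median change was 0.08 in control cells, with 5 above and 3 below 0, and 0.06 in iKO cells, with 6 above and 2 below 0, beside medians of 0.01 and 0.02 over all genes. In control cells the enzymes ranged from -0.12 for Gsr to 0.29 for Nqo1. The sign of values this small depends on the scaling: with library totals in place of TMM factors the median of all genes moved to 0.10 in control and 0.11 in iKO cells, and 7 of the 8 enzymes lay above 0 in each, while in replicates 1 and 2 alone 5 in control and 4 in iKO cells lay below 0. Of the enzymes, 1 had an unadjusted p under 0.05 and was called by DESeq2, Gclm in iKO cells.

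Gclm was the enzyme whose footprints came nearest to a call with torin 1. Its 5 iKO DMSO libraries were at 84.4, 80.6, 84.0, 96.3 and 97.3 CPM, and its 6 iKO torin 1 libraries at 100.8, 110.9 and 114.7 CPM (lowest, median, highest). The groups did not overlap, as was the case for 8.16% of all genes in this comparison, and the log2 difference was 0.30 (SE 0.09, edgeR adjusted p = 0.0661). DESeq2 and library totals called it (adjusted p = 0.0144 and 0.0177), as did a term for replicates 1 and 2 against 3 to 6 (adjusted p = 0.0271) and the replicate block (adjusted p = 0.0488, with 9.97% of all genes called), although the replicate numbers did not pair the samples here. Gclm RNA went the other way in the same cells, at 71.7, 72.8 and 73.8 CPM in DMSO and 63.9, 63.4 and 69.8 CPM in torin 1 (-0.15, SE 0.08, adjusted p = 0.294). The ratio of Gclm footprints to RNA moved by 0.61, 0.59 and 0.43 in the 3 iKO cultures and by 0.30, -0.07 and -0.16 in the control cultures. In the model of translational efficiency the iKO difference was 0.45 (SE 0.13, unadjusted p = 0.0033, adjusted p = 0.124) and the control difference 0.14 (SE 0.17, adjusted p = 0.9997). The iKO value was called by DESeq2 (adjusted p = 0.0136), with library totals (0.60, adjusted p = 0.0202) and with the replicate block (0.48, adjusted p = 0.0494), which called 2.92% of all genes.

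Gclc was the 1 member whose RNA edgeR called lower with torin 1 in both genotypes without the replicate block. Gclm RNA was also lower in 3 of 3 same-numbered pairs of each genotype, as was Txnrd1 RNA, given below. In control cells Gclc RNA was at 46.0, 43.5 and 40.6 CPM in DMSO and 35.9, 38.0 and 35.9 CPM in torin 1, and in iKO cells at 32.3, 31.8 and 34.2 CPM in DMSO and 23.7, 25.4 and 26.5 CPM in torin 1. The groups did not overlap in either genotype, which held for 33.1% and 30.6% of all genes. Gclc fell by 0.26 in control cells (SE 0.07, edgeR adjusted p = 0.0460) and by 0.38 in iKO cells (SE 0.09, adjusted p = 0.0397) on the log2 scale. These were 1 gene of 10 in each genotype, against 13.1% and 8.25% of all genes (1259 and 794, but 412 without control DMSO replicate 2 and 125 without iKO DMSO replicate 2). The calls were not firm: leaving out any 1 of the 6 libraries lost the control call (adjusted p = 0.0505 to 0.162), and in iKO cells the call was kept only without torin 1 replicate 3 (adjusted p = 0.0351 to 0.142). With all RNA replicates, those opposite to their label included, the iKO difference of Gclc was -0.01 (adjusted p = 0.998). Its footprints differed by -0.04 and 0.05 and were not called (adjusted p = 0.900 and 0.919).

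RNA of Txnrd1 was lower with torin 1 in 3 of 3 pairs of each genotype, at -0.15 (SE 0.07, edgeR adjusted p = 0.237) in control and -0.32 (SE 0.10, adjusted p = 0.106) in iKO cells, and its iKO groups did not overlap (660.5, 683.6 and 737.1 CPM against 488.2, 574.2 and 604.9 CPM). With the replicate block, which called 43.7% and 35.1% of all genes, Txnrd1 fell in both (adjusted p = 0.0165 and 0.00349) and Srxn1 rose by 0.17 in control cells (adjusted p = 0.00834). The block called 5 of the 10 genes in control and 2 in iKO cells. Txnrd1 footprints were at 351.9 to 420.8 CPM in control DMSO and 393.9 to 437.5 CPM in control torin 1, a difference of 0.10 (SE 0.07, adjusted p = 0.465). Hmox1, the inducible haem oxygenase, was called in neither assay: its footprint differences were 0.09 and -0.02 and its RNA differences -0.02 and 0.00 (lowest adjusted p = 0.767), with 95% intervals of -0.19 to 0.37 and -0.39 to 0.35 for footprints.

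**Figure D3:**
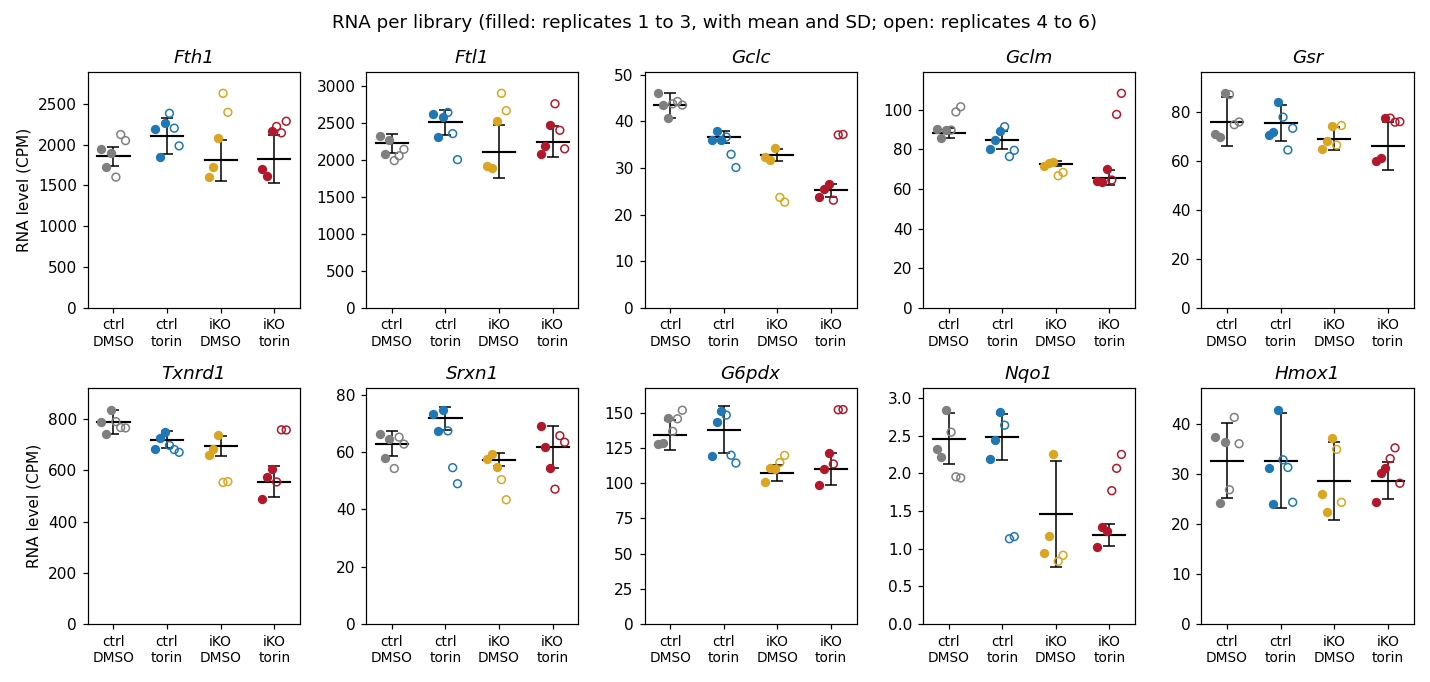
RNA of the 10 genes in each library, in CPM (linear axis from 0), for the 4 groups; filled points are replicates 1 to 3, with their mean and SD, and open points replicates 4 to 6. Gclc in replicates 1 to 3 ran from 40.6 to 46.0 CPM in control DMSO to 23.7 to 26.5 CPM in iKO torin 1, and the open points of iKO torin 1 replicates 5 and 6 lay at 37.1 and 37.2 CPM.

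In Ctu1 iKO cells most of the genes lay lower than in control cells, but few passed the test without the replicate block. With the block more were called in RNA, as given below, beside 28.0% of all genes in DMSO and 32.8% in torin 1. Without torin 1, all 10 lay below 0 in both assays, with medians of -0.31 for footprints and -0.19 for RNA where the medians of all genes were 0.00, and with library totals in place of TMM factors all 10 stayed below 0, and with footprint replicates 1 and 2 alone 9 did. With all RNA replicates 8 lay below 0 (median -0.26) and Fth1 and Ftl1 above (0.15 each). In torin 1, 9 of 10 lay below 0 for footprints (median -0.26) and 10 of 10 for RNA (median -0.26, and -0.09 with all RNA replicates). For footprints in torin 1, 8 of 10 lay below 0 with library totals and 7 of 10 (median -0.19) with replicates 3 to 6 alone. The genes share libraries and regulators, so these counts describe the set and are not 10 independent observations. The comparisons without torin 1 and the torin 1 comparisons in control cells share the control DMSO samples.

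For footprints in DMSO, edgeR called 0 of the 10 genes, beside 2.66% of all genes. At an unadjusted p under 0.05 lay 6 of them, beside 17.9% of all genes, and DESeq2, which called 6.73% of all genes, called 2, G6pdx and Nqo1. G6pdx footprints were at 118.6, 131.7 and 148.8 CPM (lowest, median, highest) in control and 96.7, 107.2 and 124.7 CPM in iKO cells (-0.29, SE 0.09, edgeR adjusted p = 0.104). Gclc was at 18.2, 22.4 and 24.4 CPM against 11.1, 17.0 and 19.6 CPM (-0.41, SE 0.14, adjusted p = 0.133), and Hmox1 at 31.6, 37.4 and 40.5 CPM against 23.5, 27.4 and 39.0 CPM (-0.36, SE 0.13, adjusted p = 0.169). The groups of these 3 genes overlapped. Without iKO DMSO replicate 3, Hmox1 was the 1 gene called (-0.49, adjusted p = 0.0499). Gclm was the 1 member whose groups did not overlap, as in 4.62% of all genes: its iKO libraries reached 97.3 CPM and its control libraries began at 98.5 CPM (-0.33, SE 0.11, adjusted p = 0.141). Fth1 stood at -0.36 (SE 0.16, adjusted p = 0.250). Txnrd1 (-0.04), Gsr (-0.11), Srxn1 (-0.17) and Ftl1 (-0.18) had adjusted p from 0.511 to 0.848.

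Nqo1 had the largest differences of the 10, on few reads. Its footprints in DMSO were at 3.61, 3.17, 3.45, 2.19, 2.70 and 2.02 CPM in control and 0.188, 1.19, 2.34, 1.29 and 0.789 CPM in iKO cells, where the lowest library held 2 counts and the control libraries 44 to 139. The groups overlapped by the iKO library at 2.34 CPM (-1.28, SE 0.43, edgeR adjusted p = 0.130). In torin 1, Nqo1 footprints were at 2.43, 2.94 and 6.37 CPM (lowest, median, highest) in control and 0.992, 1.17 and 2.33 CPM in iKO cells, and the groups did not overlap (4.31% of all genes). Nqo1 fell by 1.32 on the log2 scale (SE 0.35, adjusted p = 0.0425), the 1 gene called of 10 against 4.83% of all genes, and was lower in 6 of 6 pairs. Leaving out any 1 of 11 of the 12 libraries lost the call (adjusted p up to 0.0959), and only without iKO torin 1 replicate 1 was it kept (adjusted p = 0.0227). With the replicate block, which called 14.4% of all genes, G6pdx (-0.34, adjusted p = 0.00842) and Hmox1 (-0.46, adjusted p = 0.0253) were called beside Nqo1, and both were lower in iKO cells in 6 of 6 pairs.

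RNA gave the same direction for Nqo1. In DMSO its RNA was at 2.32, 2.21 and 2.85 CPM in control and 0.942, 1.17 and 2.26 CPM in iKO cells (-0.74, SE 0.32, edgeR adjusted p = 0.205), where iKO replicate 3 reached the control range. Without that library the difference was -1.23 (adjusted p = 0.0278), and with the replicate block -0.82 (adjusted p = 0.0185). In torin 1 it was at 2.19, 2.44 and 2.81 CPM against 1.02, 1.29 and 1.23 CPM, and Nqo1 fell by 1.06 (SE 0.18, adjusted p = 0.0492). That call was kept only without iKO torin 1 replicate 3 (-1.09, adjusted p = 0.0444, up to 0.267 without another), and with all RNA replicates the difference was -0.35 (adjusted p = 0.950), since control torin 1 replicates 5 and 6 stood at 1.13 and 1.16 CPM and iKO torin 1 replicates 5 and 6 at 2.07 and 2.25 CPM. Those are 4 of the 6 libraries that lay opposite to their label.

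Both subunits of glutamate-cysteine ligase had less RNA in iKO cells. In DMSO, Gclc fell by 0.41 (SE 0.07, edgeR adjusted p = 0.0285) and Gclm by 0.28 (SE 0.06, adjusted p = 0.0405) on the log2 scale, the latter from 90.0, 85.5 and 89.8 CPM in control to 71.7, 72.8 and 73.8 CPM in iKO cells. These were 2 genes of 10, beside 5.12% of all genes (518), a share that itself moved with single libraries: 0 genes were called without control DMSO replicate 2 and 511 without iKO DMSO replicate 3. Neither gene's groups overlapped, as for 31.5% of all genes. Of the 6 fits that left out a library, 2 kept the Gclc call (without control or iKO DMSO replicate 3) and 1 the Gclm call (without iKO DMSO replicate 3), with a highest adjusted p of 0.143 and 0.1503. G6pdx RNA was at 127.9, 128.2 and 146.4 CPM against 100.7, 110.7 and 109.6 CPM (-0.33, SE 0.08, adjusted p = 0.0586) and fell with the replicate block (-0.33, adjusted p = 0.00443), as did Txnrd1 (-0.19, adjusted p = 0.0279). The block called 5 of the 10 genes, beside 28.0% of all genes. With all RNA replicates 5 were called, G6pdx, Gclc, Gclm, Nqo1 and Txnrd1, beside 26.4% of all genes, and DESeq2 called 3, G6pdx, Gclc and Gclm, beside 15.1%.

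In torin 1, Gclc RNA fell by 0.52 between genotypes (SE 0.08, edgeR adjusted p = 0.0425), 1 of 2 genes called with Nqo1, beside 1.31% of all genes (126, and 1 to 406 when 1 library was left out). The values were 35.9, 38.0 and 35.9 CPM in control against 23.7, 25.4 and 26.5 CPM in iKO cells, and the groups did not overlap, as for 26.5% of all genes. Only without iKO torin 1 replicate 3 was the Gclc call kept (adjusted p = 0.0307), and with all RNA replicates it was -0.27 (adjusted p = 0.950). Gclm (-0.35, SE 0.08, adjusted p = 0.0908) and Txnrd1 (-0.36, SE 0.10, adjusted p = 0.118) did not overlap between genotypes but did not pass the test. DESeq2 called both of them as well as Gclc and Nqo1, beside 11.3% of all genes. With the replicate block, 7 of the 10 genes were called lower, beside 32.8% of all genes: Fth1, G6pdx, Gclc, Gclm, Gsr, Nqo1 and Txnrd1, from -0.18 for Gsr (adjusted p = 0.0414) to -1.06 for Nqo1.

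Translational efficiency did not differ between genotypes by this test for any of the 10 genes: edgeR called 0 of 10 in DMSO, beside 0.0198% of all genes, and 0 of 10 in torin 1, beside 0.622%, none of the 10 had an unadjusted p under 0.05 in either, and DESeq2 called 0 in both, giving no adjusted p for 5 of them in torin 1. The intervals remained wide, for instance -0.41 to 0.40 for Gclc and -1.78 to 0.74 for Nqo1 in DMSO. The interaction of genotype and torin 1 was likewise called by edgeR and DESeq2 for 0 of 10 genes, with 0 at an unadjusted p under 0.05, in footprints (0.639% of all genes called) and in RNA (0.00%). Its largest value in footprints was 0.25 for Gclm (95% interval -0.05 to 0.54), and Nqo1 had the widest interval (-1.16 to 1.07).

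**Figure D4:**
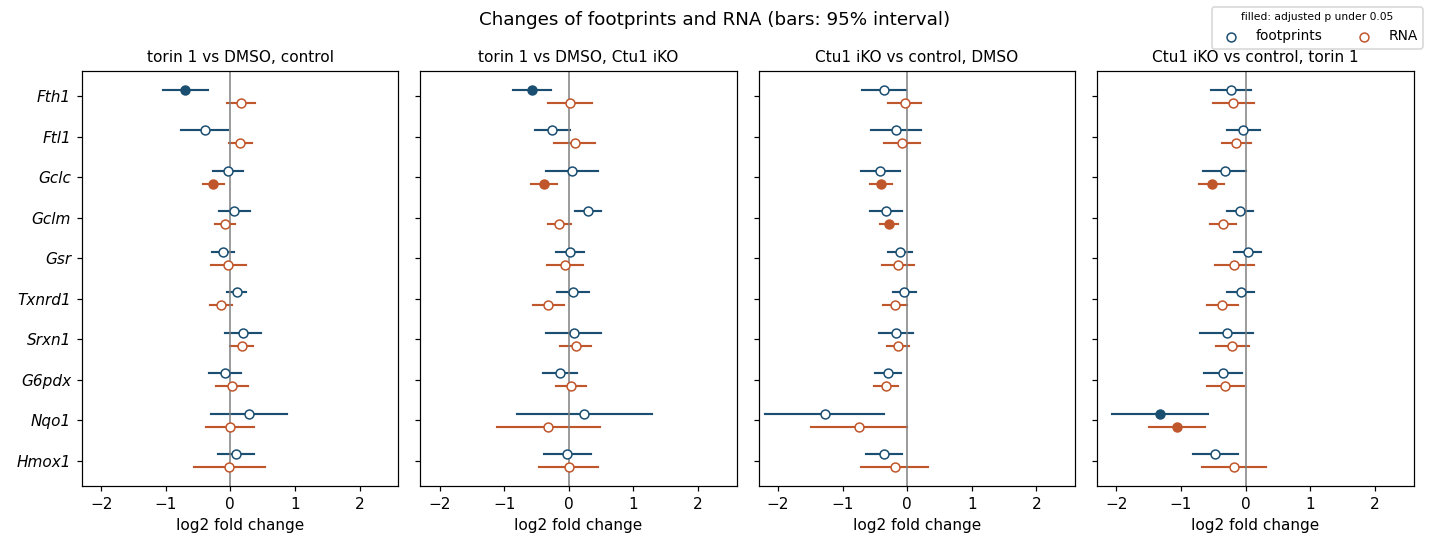
Log2 fold changes (x axis) of footprints and RNA for the 10 genes in the 4 comparisons; points are edgeR estimates, bars 95% intervals, and filled points have an adjusted p under 0.05. Fth1 footprints are filled in both torin 1 panels (-0.70 and -0.57), Gclc RNA in all 4 panels (-0.52 to -0.26), Gclm RNA in the DMSO genotype panel (-0.28), and Nqo1 in the last panel in both assays (-1.32 and -1.06).

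Further genes of the pathway are given by list, with calls by edgeR unless DESeq2 is named, and the shares of all genes called that were given above for each comparison hold here too. Among 12 regulators of NRF2, torin 1 moved the repressor Bach1 and the KEAP1-binding autophagy receptor Sqstm1 upward, and edgeR called neither Nfe2l2, which encodes NRF2, nor Keap1. Bach1 footprints rose by 0.65 in control (SE 0.13, edgeR adjusted p = 0.00440) and 0.84 in iKO cells (SE 0.16, adjusted p = 0.00339), and its RNA by 0.72 and 0.68. Sqstm1 footprints rose by 0.70 and 0.62 and its RNA by 0.77 and 0.78. Mafk, a small MAF partner, fell by 0.68 in control footprints (adjusted p = 0.0225) and by 0.69 in RNA of both genotypes, and Maff RNA rose by 0.48 in control cells. In footprints, then, edgeR called 2 regulators higher and 1 lower in control cells (7.24% of all genes called) and 2 higher in iKO cells (8.00%), and in RNA 3 higher and 1 lower, and 2 higher and 1 lower (13.1% and 8.25%). Nfe2l2 footprints differed by 0.18 (SE 0.10, adjusted p = 0.353) and 0.39 (SE 0.12, adjusted p = 0.0684) with torin 1. DESeq2 did call Nfe2l2 higher in footprints of iKO cells, among 5 of the 12 (Bach1, Maff, Mafg, Nfe2l2 and Sqstm1) where it called 11.7% of all genes. With Ctu1 iKO in DMSO, Sqstm1 footprints rose by 0.36 (adjusted p = 0.0374), the 1 regulator called in that comparison, and edgeR called 0 of the 12 in RNA, where 3 had an unadjusted p under 0.05 and DESeq2 called 2, Sqstm1 and Keap1 (15.1% of all genes).

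Other NRF2 targets did not move as a block. Of 24 tested in footprints of DMSO cells, 1 rose and 4 fell with Ctu1 iKO (median -0.08), where 1.63% of all genes were called higher and 1.04% lower, and DESeq2 called 2 higher and 5 lower. Akr1a1, an aldehyde reductase, rose by 0.55, while Cbr1, a carbonyl reductase, fell by 0.64 and the efflux transporters Abcc4 and Abcc1 by 0.52 and 0.45. In torin 1, Akr1a1 rose by 0.48, and Abcc4 and Tkt, the pentose phosphate enzyme transketolase, fell by 0.54 and 0.49. In RNA of DMSO cells, 2 of 24 rose and 2 fell (3.32% of all genes called higher and 1.80% lower), among them Osgin1, which fell by 0.93. Torin 1 gave 0 footprint calls by edgeR or DESeq2 among the 24 in control cells, with 3 at an unadjusted p under 0.05 (21.0% of all genes). In iKO cells it gave 1, Tkt (-0.40, edgeR adjusted p = 0.00984).

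Among other glutathione genes, edgeR's footprint calls with Ctu1 iKO were upward, where Gclc and Gclm lay below 0, while DESeq2 also called 2 lower in torin 1. Of 19 tested in footprints of DMSO cells, edgeR called 3 higher with Ctu1 iKO and 0 lower (median 0.21), beside 1.63% and 1.04% of all genes, and DESeq2 called 6 higher and 0 lower, beside 6.73% in either direction. The 3 included Gss, the synthetase that completes glutathione (0.48, edgeR adjusted p = 0.0138), and Gsto1, a glutathione transferase (0.41, adjusted p = 0.0154). In torin 1, 4 of 18 rose (2.23% of all genes called higher), led by the endoplasmic reticulum peroxidase Gpx8 (0.83, adjusted p = 0.00498), and DESeq2, with 8.49% of all genes called, called 4 higher and 2 lower, Glrx3 (-0.33, edgeR adjusted p = 0.0922) and the cystine transporter subunit Slc7a11 (-0.31, edgeR adjusted p = 0.0650). In RNA of DMSO cells, 5 of 19 rose and 1 fell (3.32% and 1.80% of all genes), and Chac1, which degrades glutathione, had the largest rise (2.17, SE 0.28, adjusted p = 0.0141). Of 16 thioredoxin and peroxiredoxin genes, Txnip, which binds and restrains thioredoxin, was the 1 gene that edgeR called in footprints with Ctu1 iKO, and DESeq2 called it too, with Nxn higher in DMSO and Txn1 and Txndc17 lower in torin 1. Txnip rose from 4.22 to 14.6 CPM in DMSO (1.80, SE 0.27, adjusted p = 0.00393) and from 8.12 to 27.6 CPM in torin 1 (1.76, SE 0.23, adjusted p = 0.000258), and in control cells it rose by 0.95 with torin 1.

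Among 13 genes of NADPH supply, the list to which G6pdx belongs by function, edgeR called 0 higher in footprints in any comparison, and DESeq2 called 1, Taldo1, higher with Ctu1 iKO in DMSO (0.20, edgeR unadjusted p = 0.0125, adjusted p = 0.147). Tkt fell by 0.33 with Ctu1 iKO in DMSO and by 0.49 in torin 1, and in iKO cells torin 1 lowered Tkt by 0.40 and Pgls, the next enzyme after G6pdx, by 0.98. Of 3 superoxide and peroxide enzymes, Sod1, the copper-zinc superoxide dismutase, fell by 0.77 with torin 1 in iKO cells.

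Of 24 genes of iron and haem handling, edgeR called 0 higher in footprints and 2 lower between genotypes in DMSO, 1 lower with torin 1 in each genotype and 2 lower between genotypes in torin 1. At an unadjusted p under 0.05 lay 8, 8, 5 and 5 of the 24 in these 4 comparisons, beside 17.9%, 21.0%, 21.6% and 18.8% of all genes. DESeq2 called 1 higher in each comparison between genotypes. In RNA edgeR called 1 higher in each of the 4 comparisons. With Ctu1 iKO in DMSO it was Ncoa4, the receptor for ferritin autophagy (0.29), and with torin 1 in control cells Pcbp2. With torin 1 in iKO cells it was Alas1, which starts haem synthesis (0.36), and with Ctu1 iKO in torin 1 the ferrireductase Steap3 (0.69). In the same order edgeR called 1, 3, 2 and 0 RNAs lower, and DESeq2 called 2, 2, 2 and 3 higher and 2, 3, 3 and 1 lower. Alas1 fell by 0.45 in footprints with Ctu1 iKO in DMSO (adjusted p = 0.0174). The transferrin receptor Tfrc, which brings iron into the cell, fell with Ctu1 iKO in footprints (-0.72, SE 0.17, edgeR adjusted p = 0.0352, and -0.69 in torin 1) and in RNA of DMSO cells (-0.53). The iron transporter Slc11a2 fell with torin 1 in control cells in footprints (-0.67, adjusted p = 0.00079) and in RNA (-0.55), and Tfrc RNA fell by 0.38. Pcbp2, an RNA-binding protein that also delivers iron to ferritin, fell in footprints by 0.51 with torin 1 in iKO cells and by 0.52 with Ctu1 iKO in torin 1, while its RNA rose by 0.23 with torin 1 in control cells. It was also called in translational efficiency in the comparisons of its footprint calls (-0.74, adjusted p = 0.00194, and -0.73, adjusted p = 0.0276).

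The coding sequences of the 10 genes were not rich as a group in the codons read by U34-modified tRNAs. AAA, CAA and GAA together made up 2.58% (Srxn1) to 9.49% (Gclm) of codons, and 4 genes, Gclm, Txnrd1, Fth1 and Gsr, lay above the median of 6.04% over 10309 genes. Nqo1, with the largest footprint difference, held 5.47%, and Fth1 held 7.69%.

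Over the 23 footprint libraries, likeness was measured as the root mean square difference of centred log2 CPM, among 8847 genes. A flat profile lies at a gene's own root mean square, so a value counts as near only if it is smaller than that. Fth1 and Ftl1, with own values of 0.437 and 0.307, were each other's nearest member (0.218), as were G6pdx (0.253) and Gclc (0.292) at 0.196. Txnrd1 and Gsr were also each other's nearest (0.150), but their own values were lower (0.136 and 0.103), so that both varied little rather than alike. Beyond the set, the genes nearest to Fth1 were Luc7l3 (0.228) and Ftl1-ps1 (0.232), and those nearest to Ftl1 were its copy Ftl1-ps1 (0.0733) and Dusp7 (0.206). The profile of G6pdx was close to those of the tubulins Tuba1c (0.103) and Tuba1b (0.105). Nqo1, at 2 to 139 counts per library, had no close neighbour (Pitpnm1 was at 0.364). For Gclm they were Trap1 (0.134) and Ppp1cc (0.146), for Gclc Cct6a (0.167) and Psmd13 (0.169), for Txnrd1 Qrich1 (0.109), for Srxn1 Idh2 (0.166) and Tpi1 (0.190), and for Hmox1 Parn (0.191) and Gm43738 (0.205). The values describe profiles over libraries of shared depth and treatment and carry no test.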

How the data were processed

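Ribosome footprints and RNA were counted per gene by the authors, and the deposited tables hold raw counts. Per the labels, footprints were trimmed (cutadapt 3.4), deduplicated by molecular identifiers (UMI-tools 1.1.1) and aligned with STAR (2.5.3a). The labels name mm10, whereas the methods name a human build for footprints, so the build of the counts is uncertain. Every RNA count was even, which leaves folds unchanged but overstates RNA depth. The methods give 2 biologically independent replicates on consecutive days, where the labels, like the figure legends for ribosome profiling, number up to 6 a group. Each labelled replicate was taken as a separate sample, so p-values measure only the spread between these samples, which may be technical in part. Genes and lists were chosen with earlier results of these data known.

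Counts were tested with the edgeR quasi-likelihood test (4.0.16, R 4.3.3; TMM factors, mean of at least 10 counts, Benjamini-Hochberg adjustment over all genes, threshold 0.05) on the groups compared, and interactions on all 4 groups. Translational efficiency was the interaction of assay and group in 1 fit, with footprints of all replicates and RNA replicates 1 to 3. Alternatives were DESeq2 (1.42.0), library totals, no filter, a replicate block, a term for replicates 1 and 2 against 3 to 6 (replicate-set term), subsets of replicates and each library left out. The counts of copies were added to Ftl1 and G6pdx after the data were seen. Profiles for likeness and pairing were log2 CPM with a pseudocount of 1. Same-numbered samples deviated together (every correlation over 0.1) in all RNA comparisons and, for footprints, between treatments in control cells and between genotypes in torin 1. Besides the 10 genes and Ctu1, up to 3 called genes a direction were named per list and comparison (mean of at least 100 counts, largest change), and for each gene its 2 nearest by footprint profile; some genes that the rule names are not reported here. In simulated 2-fold changes the tests recovered 97.0 to 100.0% of 200 changed genes for footprints and 81.5 to 99.5% for RNA, and 85.9 to 90.6% of 191 to 198 for translational efficiency, over all genes tested in each (9617 to 10397). Python 3.11.15, pandas 2.3.3 and matplotlib 3.10.9 served for tables and plots.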

Additional observations from a re-analysis of the deposited data

Results flagged for a closer look

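Of 40 groups of 5 or 6 footprint libraries, 4 held 1 sample far from the others by Dixon's test, which flags about 1 in 20 groups by chance. Nqo1 stood at 6.37 CPM in control torin 1 replicate 4, where the other libraries of that group lay at 2.43 to 3.67 CPM. Without it, the Nqo1 difference between genotypes in torin 1 was -1.06 and no longer called (adjusted p = 0.0959), as given above with the other libraries whose removal ended that call. Gclm stood at 147 CPM in control DMSO replicate 3, where the others lay at 98.5 to 110.5 CPM. Without that library the Gclm difference between genotypes in DMSO was -0.23 (adjusted p = 0.243). Srxn1 was at 8.26 CPM in iKO DMSO replicate 5 (others 10.1 to 10.7 CPM), and Gsr at 57.8 CPM in iKO DMSO replicate 2 (others 49.8 to 51.1 CPM). What set these samples apart was not tested.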

How the results depend on the processing

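The Fth1 footprint calls with torin 1 were kept with DESeq2, library totals, no filter, the replicate-set term, the copies added and the replicate block, and were lost with replicates 1 and 2 alone or 1 to 3 alone, where 0 of the 10 genes, but 1.36 to 1.81% of all genes, were called. Of 2580 values of the 10 genes under the alternatives, 193 had the other sign, of which 0 were called in either fit. In the RNA interaction 2 of 10 lay above 0, and 8 with all replicates. Counts of genes called of the 10 follow, with the share of all genes called in brackets. For footprints in DMSO between genotypes they were 0 (2.66%), 2 with DESeq2 (6.73%) and 1 with the replicate-set term (7.09%). With torin 1 in control cells they were 1 (7.24%), and 2 with the replicate block (20.5%). In iKO cells they were 1 (8.00%), and 2 with DESeq2 (11.7%), library totals (9.10%), the replicate block (9.97%) or the replicate-set term (13.9%). Between genotypes in torin 1 they were 1 (4.83%), 3 with the replicate block (14.4%), and 2 with the replicate-set term (9.22%) or replicates 3 to 6 alone (6.44%). They were 0 with replicates 1 and 2 (0.00%) or 1 to 3 alone (0.0101%), fits that called almost no gene of any kind. For RNA between genotypes in DMSO they were 2, and 5 with the block (28.0% of all genes called), 5 with all replicates (26.4%), 4 with replicates 1 and 2 (15.3%) and 3 with DESeq2 (15.1%), beside 5.12%. With torin 1 in control cells they were 1, and 5 with the block and 2 with all replicates (43.7% and 9.51% of all genes, beside 13.1%). In iKO cells they were 1 (8.25%), 2 with the block (35.1%) and 0 with all replicates (0.00%) or replicates 1 and 2 (10.4%). Between genotypes in torin 1 they were 2 (1.31% of all genes), 4 with DESeq2 (11.3%) and 7 with the block (32.8%). They were 0 with all replicates (0.00%) or replicates 1 and 2 (0.124%), fits that called almost no gene of any kind. For translational efficiency with torin 1 in control cells they were 0 (1.30%), 1 with DESeq2 (1.60%) and 2 with the replicate block within assays (2.86%). They were 2 with replicates 1 to 3 of both assays (1.18%), 1 with all replicates (1.72%) and 1 with the replicate block by culture (1.16%). In iKO cells they were 0 (2.04%), and 1 with DESeq2 (3.10%), library totals (1.90%) or the block (2.92%). Leaving out each library gave 0 to 1, 1 to 2, 1 to 1 and 0 to 1 called genes for footprints (genotypes in DMSO, torin 1 in control, torin 1 in iKO, genotypes in torin 1), 0 to 3, 0 to 0, 0 to 1 and 0 to 2 for RNA, and 0 to 0, 0 to 1, 0 to 0 and 0 to 0 for translational efficiency. Both interactions stayed at 0. The cause of these differences was not tested.

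Over all genes the replicate block called 364, 2019, 983 and 1425 genes for footprints where the fit without it called 277, 714, 788 and 479, and 2831, 4206, 3378 and 3162 against 518, 1259, 794 and 126 for RNA. For footprints in DMSO between genotypes (correlations of -0.10 to 0.46) and with torin 1 in iKO cells (-0.03 to 0.42), the samples share only a number. DESeq2 called 700, 1068, 1155 and 842 genes for footprints and 1530, 1963, 1609 and 1092 for RNA. Nqo1 rested on 2 to 139 footprints a library. Changes under 2-fold were not simulated, so how many smaller ones these depths can show is not known.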
